A study of Mus musculus with 6 samples.

Results

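The interferon-induced IFIT, IFITM and Ifi27 families, together with Bst2, were followed in cortical RNA of d10 microglia-depleted and littermate control mice. The genes were taken by symbol from the deposited table of FPKM values (fragments scaled by transcript length and library size). Of 10 symbols, 9 had a row among the 23366 genes of the table: Ifit1, Ifit2, Ifit3, Ifitm1, Ifitm2, Ifitm3, Ifi27l1, Ifi27l2a and Bst2. There was no row under the symbol Ifi27, and RefSeq gives Ifi27l1 as another name of Ifi27, so the Ifi27l1 row is taken to hold that gene, although the annotation behind the table is not given in the sources used here.

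The depleted mice (A4, A5 and A6) carried CX3CR1-CreERT2+/- and iDTR+/-, in which a tamoxifen-inducible Cre under the CX3CR1 promoter opens a diphtheria toxin receptor allele, and they received tamoxifen and later diphtheria toxin. The control mice (A1, A2 and A3) were littermates with CX3CR1-CreERT2+/- alone that also received tamoxifen, and the sources used here do not state whether they received the toxin. All 6 mice were on a C57BL/6 background and were matched for age and sex according to the methods, which give no age for them. The brain at d10 was not free of microglia: 10 microglia markers summed to between 105.3 and 128.7 FPKM in control mice and between 108.7 and 133.6 FPKM in depleted mice. The driver acts in every cell with an active CX3CR1 promoter, and the tissue is frontal cortex with all of its cell types, in which fewer cells of a type and less RNA per cell cannot be told apart.

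These genes are classical targets of type I interferon. Interferon binds a receptor made of IFNAR1 and IFNAR2, the kinases JAK1 and TYK2 are activated, and a complex that holds STAT2 and IRF9 binds the interferon-stimulated response element (ISRE) at target genes. IFIT proteins bind viral RNA and block its translation, IFITM proteins sit in cell membranes and hinder virus entry, the small hydrophobic proteins of the Ifi27 family locate to membranes of mitochondria and the nucleus, and BST2 (tetherin) holds budding virus at the cell surface. In the brain, microglia, astrocytes, endothelial cells and neurons can all make such proteins when exposed to interferon.

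The promoters are shown first because the ISRE is the sequence through which interferon is known to reach them. RefSeq promoter windows (GRCm38.p6, 250 bases before to 50 bases after each annotated start) were found for 7 of the 9 genes, and not for Ifi27l1 and Ifi27l2a. The ISRE core, spelled GAAA, any 2 bases, GAAA and searched on both strands (TTTC, any 2 bases, TTTC in reverse), was present in 5 of these 7 genes and in 3.44% of 32851 windows of the same length (3.99% of 27025 genes). Capitals mark the core in the stretches below, which are written 5′ to 3′ on the strand of the gene. Ifit1 (chr19:34640739-34640888, plus strand), Ifit3 (chr19:34583359-34583458, plus strand) and Bst2 (chr8:71537523-71537622, minus strand) are printed for genes with 2 matches before the start.
Ifit1: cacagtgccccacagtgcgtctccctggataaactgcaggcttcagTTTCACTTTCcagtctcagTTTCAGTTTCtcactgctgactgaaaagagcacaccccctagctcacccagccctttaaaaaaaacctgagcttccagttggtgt
Ifit3: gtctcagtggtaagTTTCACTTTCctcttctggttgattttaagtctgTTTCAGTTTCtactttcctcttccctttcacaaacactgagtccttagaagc
Bst2: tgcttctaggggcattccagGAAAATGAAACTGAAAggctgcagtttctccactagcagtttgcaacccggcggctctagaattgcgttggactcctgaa
The 2 matches of Bst2 overlap each other. The 3 Ifitm genes are printed because they lie near each other on chromosome 7 and differed in their values: Ifitm3 (chr7:141010715-141010744, minus strand) has 2 matches within the first 30 bases after its annotated start, Ifitm2 (chr7:140955962-140956061, minus strand) has 1 match before its start, and Ifitm1 (chr7:140967976-140968075, plus strand) has none in its window.
Ifitm3: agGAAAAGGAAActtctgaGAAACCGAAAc
Ifitm2: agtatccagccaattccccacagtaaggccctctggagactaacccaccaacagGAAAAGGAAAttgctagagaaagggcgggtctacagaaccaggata
Ifitm1: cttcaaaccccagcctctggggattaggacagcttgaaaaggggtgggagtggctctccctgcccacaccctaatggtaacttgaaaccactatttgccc
In Ifit1 the matches began 104 and 85 bases before the start, in Ifit3 156 and 122, in Bst2 130 and 124, and in Ifitm2 46. Neither of the 2 annotated starts of Ifit2 had a match. A match is a description of letters, and no match says nothing of the factor.

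**Figure D1:**
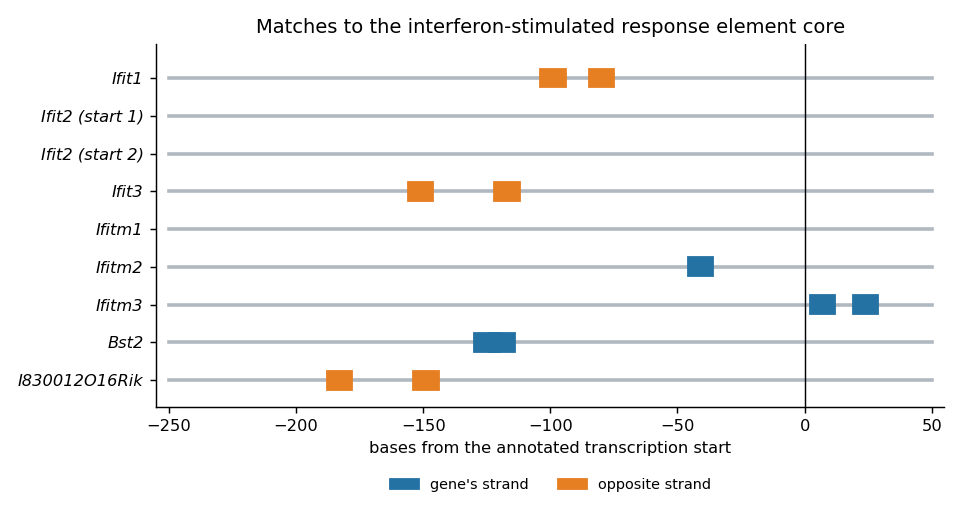
Position of ISRE core matches (boxes of 10 bases; blue, strand of the gene; orange, opposite strand) in the RefSeq promoter window of each gene, in bases from the annotated start, with 1 line per window. Matches lie before the start in Ifit1, Ifit3, Bst2 and Ifitm2, after it in Ifitm3, and in neither window of Ifit2 nor in that of Ifitm1; I830012O16Rik is the close copy of Ifit3.

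Library depth, estimated from the steps between low FPKM values, was about 14.6 to 20.5 M fragments in the controls and 7.18 to 13.7 M after depletion, with A5 shallowest. Mouse A4 stood apart from the rest: the Y-linked genes Ddx3y, Eif2s3y, Kdm5d and Uty summed to 5.56 FPKM in A4 and to at most 0.16 FPKM in each other mouse, although Xist was at 30.9 FPKM in A4. Control mouse A3 had Xist at 4.74 FPKM, against 30.9 to 46.7 FPKM in the other mice. The fold changes of the 9 genes are therefore also given without A4. Cortical neuron markers summed to between 1971 and 2308 FPKM in control and between 1995 and 2165 FPKM in depleted mice.

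The comparison of depleted with control mice asks which of these genes differ once microglia have been ablated. Differences were tested with limma on log2(FPKM + 1) over 14385 genes whose mean reached 0.5 FPKM, a filter that all 9 genes passed; Ifit1 had the lowest control mean, at 1.54 FPKM, so none depended on the depleted mice to pass. With a Benjamini-Hochberg adjusted p-value under 0.1, 0 of the 9 genes passed in limma, against 4 of all genes tested (0.0278%). At an unadjusted p-value under 0.05, 6 of the 9 were higher in depleted mice and 0 lower, against 4.79% of all genes tested that were higher. The 6 genes were Ifit1, Ifit3, Ifitm3, Ifi27l1, Ifi27l2a and Bst2, and they were also the 6 in which every depleted mouse stood above every control mouse, which was the case in 8.21% of all genes tested. The median log2 fold change was 1.54 over the 9 genes and -0.0085 over all genes tested.

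**Figure D2:**
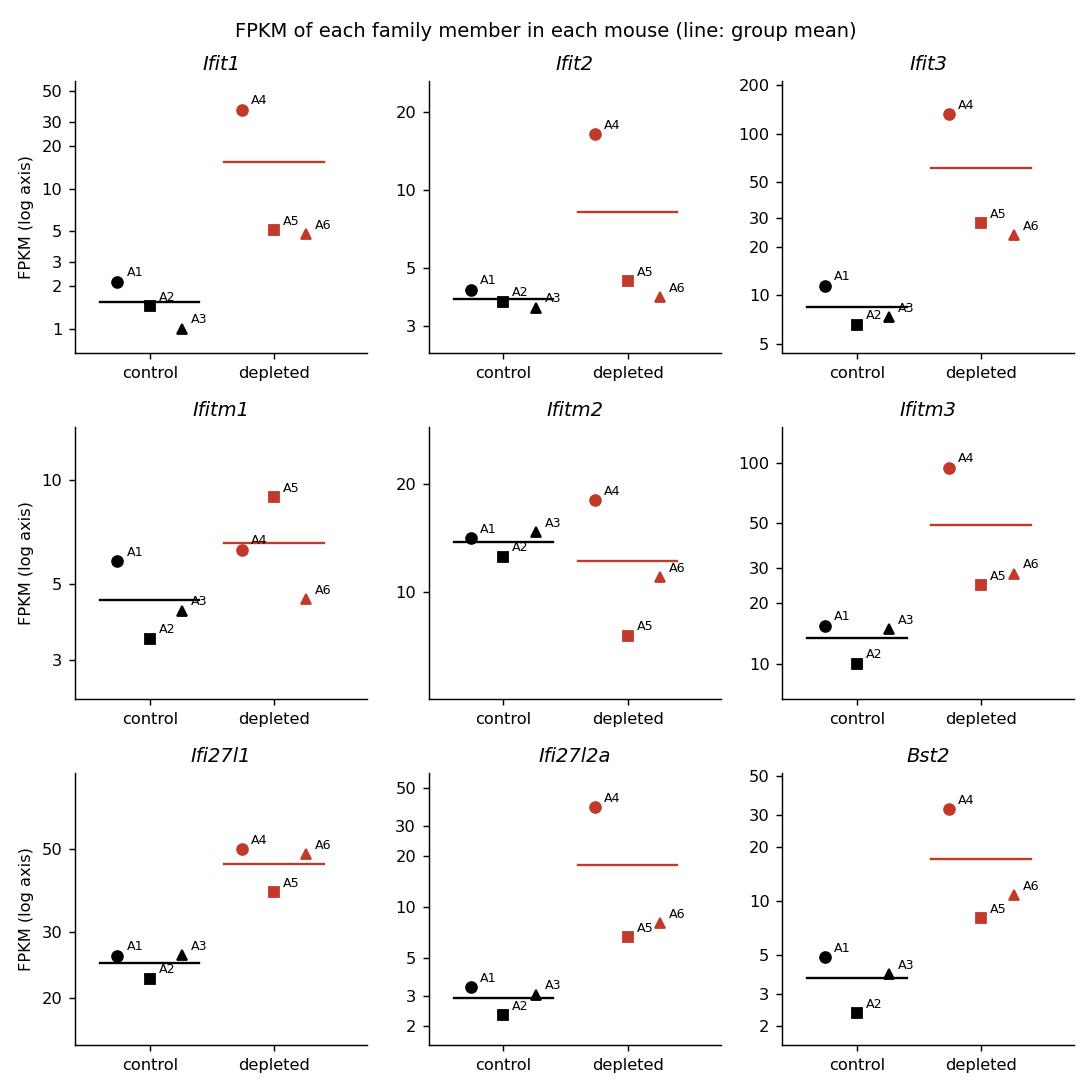
FPKM (log axis) of each of the 9 genes in the 3 control mice (black) and the 3 depleted mice (red), with the group mean as a line and 1 point per mouse. The groups do not overlap in Ifit1, Ifit3, Ifitm3, Ifi27l1, Ifi27l2a and Bst2, and A4 is far above A5 and A6 in Ifit1, Ifit2, Ifit3, Ifitm3, Ifi27l2a and Bst2.

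Among the IFIT genes, Ifit1, whose protein binds viral RNA that lacks the methylation of host caps, measured 2.17, 1.45 and 1.00 FPKM in the controls (A1 to A3) and 36.7, 5.06 and 4.73 FPKM after depletion (A4 to A6). All 3 depleted mice were above all 3 control mice, and A4 stood far above the other depleted mice, at 23.8 times the control mean against 3.29 times in A5 and 3.07 times in A6. Its log2 fold change was 2.13 (standard error, SE, 0.64, limma adjusted p = 0.378), or 1.24 (SE 0.20, limma adjusted p = 0.124) without A4. Ifit1 had the lowest control level of the 9 genes, and its lowest value, in A3, rested on about 49 fragments.

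Ifit3, whose protein is a partner of IFIT1 and IFIT2, measured 11.4, 6.55 and 7.30 FPKM in the controls (A1 to A3) and 132, 27.8 and 23.4 FPKM after depletion (A4 to A6). Here too the groups did not overlap, and the lowest depleted mouse was above the highest control mouse. Mean levels were 8.43 ± 2.63 FPKM (SD, n = 3) in the controls and 61.2 ± 61.6 FPKM (SD, n = 3) after depletion, so that the spread among depleted mice was as large as their mean. The log2 fold change of 2.30 was the largest among the 9 genes (SE 0.56, limma adjusted p = 0.370). Without A4 it was 1.53 (SE 0.20, limma adjusted p = 0.103), again the largest. This order depends on the 1 FPKM added: with a pseudocount of 0.1 Ifit1 was ahead, at 2.63 against 2.42. The ratio of mean FPKM, depleted over control, was also larger in Ifit1, at 10.1 against 7.26, or 3.18 against 3.04 without A4. Within each mouse the FPKM of Ifit3 was from 4.52 to 7.30 times that of Ifit1 in control and from 3.61 to 5.49 times in depleted mice, ratios that overlapped between the groups (exact two-sided permutation test, p = 0.5).

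Reads of Ifit3 can be confused with those of I830012O16Rik, now named Ifit3b, a neighbouring copy: 41.1% of the 75-base windows of the Ifit3 transcript also occur in it. I830012O16Rik measured 5.03, 3.46 and 3.86 FPKM in the controls (A1 to A3) and 43.3, 8.32 and 8.62 FPKM after depletion (A4 to A6). It lay apart in the same way as Ifit3, with a log2 fold change of 1.64 (SE 0.53, limma adjusted p = 0.388) and of 0.90 without A4. The FPKM of both copies summed to 12.5 ± 3.45 FPKM (SD, n = 3) in control mice and 176, 36.1 and 32.1 FPKM in A4 to A6. The FPKM ratio of Ifit3 to I830012O16Rik was from 1.89 to 2.27 in control mice and from 2.72 to 3.34 in depleted mice, with no overlap (p = 0.1 by exact two-sided permutation, the floor of this design).

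Ifit2, whose protein also binds RNA and limits virus growth in neurons, lay near the control level in 2 of the 3 depleted mice. It measured 4.13, 3.71 and 3.53 FPKM in the controls (A1 to A3) and 16.4, 4.45 and 3.87 FPKM after depletion (A4 to A6). A4 alone was far from the control mice, and A6 lay inside the control range. The log2 fold change was 0.69 (SE 0.42, limma adjusted p = 0.590), and it was 0.11 (SE 0.12, limma adjusted p = 0.754) without A4. The FPKM ratio of Ifit1 to Ifit2 was 0.525, 0.391 and 0.283 in A1, A2 and A3 and 2.24, 1.14 and 1.22 in A4, A5 and A6. The ratios did not overlap (p = 0.1 by exact two-sided permutation, the floor of this design), so that Ifit1 was higher relative to Ifit2 in every depleted mouse, A5 and A6 included.

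The other IFIT relatives were low. Gm14446, now named Ifit1bl1, had a log2 fold change of 0.10 (SE 0.15, limma adjusted p = 0.826) and overlapped between the groups, from 1.62 to 2.17 FPKM in control and from 1.79 to 2.36 FPKM in depleted mice. 2010002M12Rik, now named Ifit1bl2, measured 0.33, 0.52 and 0.28 FPKM in the controls (A1 to A3) and 1.02, 0.43 and 0.60 FPKM after depletion (A4 to A6), with a log2 fold change of 0.28 (SE 0.19, limma adjusted p = 0.623). Ifit1 and Ifit1bl2 lie head to head on chromosome 19, their promoter windows overlap, and the 2 ISRE core matches printed for Ifit1 are also in the window of Ifit1bl2. At these levels, 2010002M12Rik was never above 1.02 FPKM, while Ifit1 reached 36.7 FPKM.

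Among the IFITM genes, Ifitm3, whose protein blocks virus entry from endosomes, measured 15.4, 9.99 and 14.8 FPKM in the controls (A1 to A3) and 94.0, 24.6 and 28.0 FPKM after depletion (A4 to A6). Each depleted mouse was above each control mouse, with A4 at 7.01 times the control mean, A5 at 1.83 times and A6 at 2.09 times. Its log2 fold change reached 1.54 (SE 0.44, limma adjusted p = 0.378), and 0.94 (SE 0.17, limma adjusted p = 0.150) without A4.

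Ifitm2, a close relative of Ifitm3 in sequence, had a different pattern. It measured 14.1, 12.6 and 14.7 FPKM in the controls (A1 to A3), near the level of Ifitm3, and 18.0, 7.57 and 11.0 FPKM after depletion (A4 to A6). A4 was above all control mice, and A5 and A6 were below all of them. On average the log2 fold change was -0.24 (SE 0.25, limma adjusted p = 0.755), -0.54 (SE 0.15, limma adjusted p = 0.253) without A4 and 0.034 without A5. The value in A5, the shallowest library, rested on about 36 fragments. Of the 75-base windows of Ifitm2, 42.0% also occur in other genes of GENCODE M21, most often in the overlapping gene Gm45717 (33.4% of the windows), and none of those genes had a row in the table. The FPKM ratio of Ifitm3 to Ifitm2 was 1.09, 0.794 and 1.01 in A1, A2 and A3 and 5.21, 3.24 and 2.54 in A4, A5 and A6, so that the depleted mice had a higher ratio in 3 of 3 mice (p = 0.1 by exact two-sided permutation, the floor of this design).

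Ifitm1, whose protein acts mainly at the cell surface, measured 5.81, 3.47 and 4.18 FPKM in the controls (A1 to A3) and 6.29, 8.94 and 4.51 FPKM after depletion (A4 to A6). A4 and A5 were above the control mice and A6 was inside their range, and here A5 and not A4 was highest. The log2 fold change was 0.45 (SE 0.23, limma adjusted p = 0.533) and 0.45 without A4, but 0.23 without A5. The more distant relatives Ifitm7 and Ifitm10 overlapped between the groups, with log2 fold changes of 0.044 (SE 0.22) and 0.0040 (SE 0.18), or -0.12 and -0.066 without A4. Ifitm5, a gene of bone-forming cells, and Ifitm6 did not exceed 0.36 FPKM in any library and were not tested.

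The pair of Ifi27 genes differed in how far A4 stood from A5 and A6, at 1.15 times their mean in Ifi27l1 and 5.26 times in Ifi27l2a. Ifi27l1, which was the most abundant of the 9 genes in control mice, was at 25.92, 22.52 and 26.02 FPKM there and at 49.7, 38.3 and 48.3 FPKM in A4 to A6. The 3 depleted mice stood close together, between 1.54 and 2.0 times the control mean, and all were above the control mice. Mean levels were 24.8 ± 1.99 FPKM (SD, n = 3) in the controls and 45.4 ± 6.25 FPKM (SD, n = 3) after depletion. Its log2 fold change was 0.84 (SE 0.11, limma adjusted p = 0.151), the smallest adjusted p-value of the 9 genes, and by unadjusted p-value it ranked 6 of 14385. Without A4 the log2 fold change was 0.77 (SE 0.11, limma adjusted p = 0.112).

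Ifi27l1 was also the only one of the 9 genes that passed the threshold in any alternative fit that was run. It did so without A5 (limma adjusted p = 0.0276, where 0.202% of all genes passed) and with array weights, by which limma weights each mouse by its own spread (limma adjusted p = 0.0950, where 0.139% of all genes passed). Over the alternatives its adjusted p-value ran from 0.0276 to 0.691 and its log2 fold change from 0.77 to 0.96.

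Ifi27l2a measured 3.36, 2.31 and 3.04 FPKM in the controls (A1 to A3) and 38.6, 6.63 and 8.03 FPKM after depletion (A4 to A6). The groups did not overlap, and A4 was at 13.3 times the control mean against 2.28 times in A5 and 2.77 times in A6. The log2 fold change was 1.85 (SE 0.54, limma adjusted p = 0.378), or 1.10 (SE 0.15, limma adjusted p = 0.103) without A4. Its short transcript gave few fragments, about 22 in A2 and A5. The FPKM ratio of Ifi27l2a to Ifi27l1 was from 0.103 to 0.130 in control mice, 0.776 in A4, and 0.173 and 0.166 in A5 and A6, with no overlap between the groups (p = 0.1 by exact two-sided permutation, the floor of this design). The third Ifi27 gene, Ifi27l2b, was listed at 0 in A1, A2, A3 and A6, at 0.26 FPKM in A4 and at 0.51 FPKM in A5, under the filter of the test.

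Bst2, the gene of tetherin, measured 4.85, 2.35 and 3.89 FPKM in the controls (A1 to A3) and 32.5, 8.02 and 10.8 FPKM after depletion (A4 to A6). All depleted mice were above the control mice, at 8.80, 2.17 and 2.91 times the control mean. Bst2 had a log2 fold change of 1.74 (SE 0.44, limma adjusted p = 0.370), and 1.17 (SE 0.23, limma adjusted p = 0.170) without A4.

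**Figure D3:**
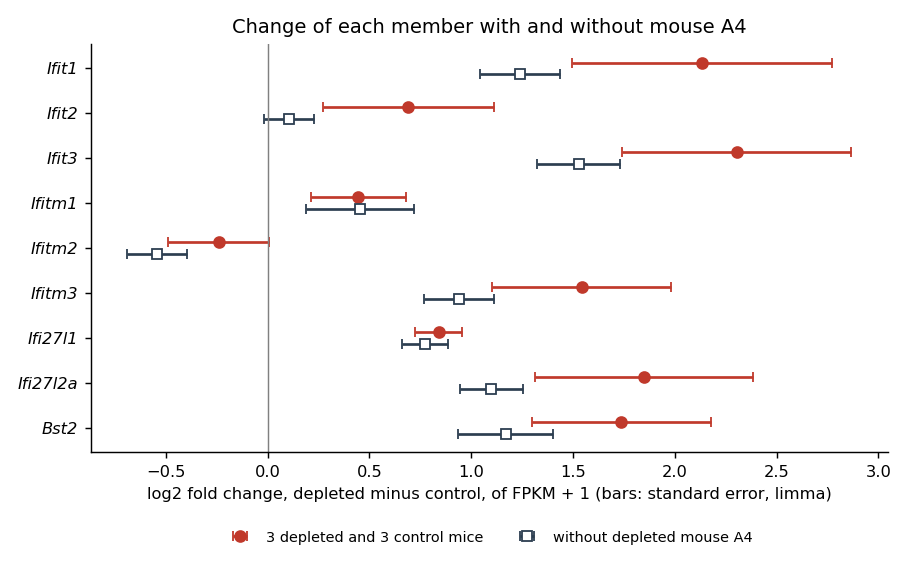
Log2 fold change of FPKM + 1, depleted minus control, for each of the 9 genes, with all 6 mice (red circles) and without A4 (open squares); bars are standard errors from limma. Leaving out A4 moves Ifit3 from 2.30 to 1.53 and Ifit2 from 0.69 to 0.11, and leaves Ifi27l1 at 0.77 against 0.84.

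Without A4, the 2 remaining depleted mice were above every control mouse in 6 of the 9 genes, the same 6 as before, against 14.5% of all genes tested. At an unadjusted p-value under 0.05, the same 6 were higher, against 5.99% of all genes tested that were higher. Ifitm2 was lower at this threshold, and the share of all genes that were lower was not taken. That call rests on A5 and A6 alone, with about 36 fragments of Ifitm2 in A5. None of the 9 passed an adjusted p-value under 0.1 in limma without A4, against 0.0278% of all genes tested, and the lowest was 0.103. The median log2 fold change of the 9 genes without A4 was 0.94. The SE without A4 was 0.20 against 0.64 with it in Ifit1, and 0.20 against 0.56 in Ifit3.

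In the order of levels, control mice had Ifi27l1 highest, then Ifitm2, Ifitm3, Ifit3, Ifitm1, Ifit2, Bst2, Ifi27l2a and Ifit1. Neighbours in this order overlapped between mice except at 3 places, where Ifi27l1 was above Ifitm2, Ifit3 above Ifitm1 and Ifi27l2a above Ifit1. Read within a mouse, Ifitm3 was also above Ifit3, and Bst2 above Ifi27l2a, in every control mouse. In depleted mice the mean FPKM ran from Ifit3 and Ifitm3 through Ifi27l1, Ifi27l2a, Bst2, Ifit1, Ifitm2 and Ifit2 to Ifitm1. Every pair of neighbours overlapped between mice, but within every depleted mouse Ifi27l1 was above Ifi27l2a and Ifitm2 above Ifit2. The order after depletion rested on A4: in A5 and A6 Ifi27l1 was highest in both mice, with a mean of 43.3 FPKM, ahead of Ifitm3 at 26.3 FPKM and Ifit3 at 25.6 FPKM, and Ifit1 was at place 8 of the 9, as against place 6 with A4.

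Other interferon-stimulated genes were also higher in depleted mice on average. Of 36 such genes, all but Oas1g were tested, and 35 of 35 had a higher mean on the log2 scale in depleted mice, from Oas3, at 0.00033, to Isg15, the ubiquitin-like modifier, at 1.98. Without A4, Oas3 and Slfn5 were lower. Oas3 was also lower with a pseudocount of 0.1, with TPM scaling, with array weights and without A1. The filter took the mean over all 6 mice, and Mx1, Mx2 and Rsad2, for example, did not exceed 0.39 FPKM in any control mouse. Such genes passed it only through the depleted mice, so the filter favoured a higher mean in them. The counts over the 35 include them. In limma 0 of the 35 had an adjusted p-value under 0.1, an unadjusted p-value under 0.05 was found in 20, all higher (19 without A4), and the groups did not overlap in 25. The median log2 fold change of these 35 genes was 0.99, and 0.40 without A4. Set against the control mean in each depleted mouse, the median log2 level was 2.74, 0.88 and 1.03 in A4, A5 and A6 over the 9 genes, 1.94, 0.39 and 0.53 over the 35, and -0.0072, -0.0097 and -0.00098 over all genes tested. The scale of log2(FPKM + 1) understates the change of low genes. Mx1, Mx2, Oas1a and Rsad2, of the 35, did not exceed 0.56 FPKM in any control mouse, and the lowest control mean of the 9 was 1.54 FPKM. The medians of the 9 and of the 35 are therefore not on equal terms.

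A4 exceeded the mean of A5 and A6 in 35 of the 35 other interferon-stimulated genes, by 0.71 to 3.01 on the log2 scale and by a median of 1.54. In Ifi27l1 the same gap was 0.21 and in Ifitm1 it was -0.022, both under the lowest of the 35. In the other 7 genes it was from 0.91, in Ifitm2, to 2.68, in Ifit1. The gap rests on 1 mouse, the 35 include genes that passed the filter only through the depleted mice, and it is a description.

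**Figure D4:**
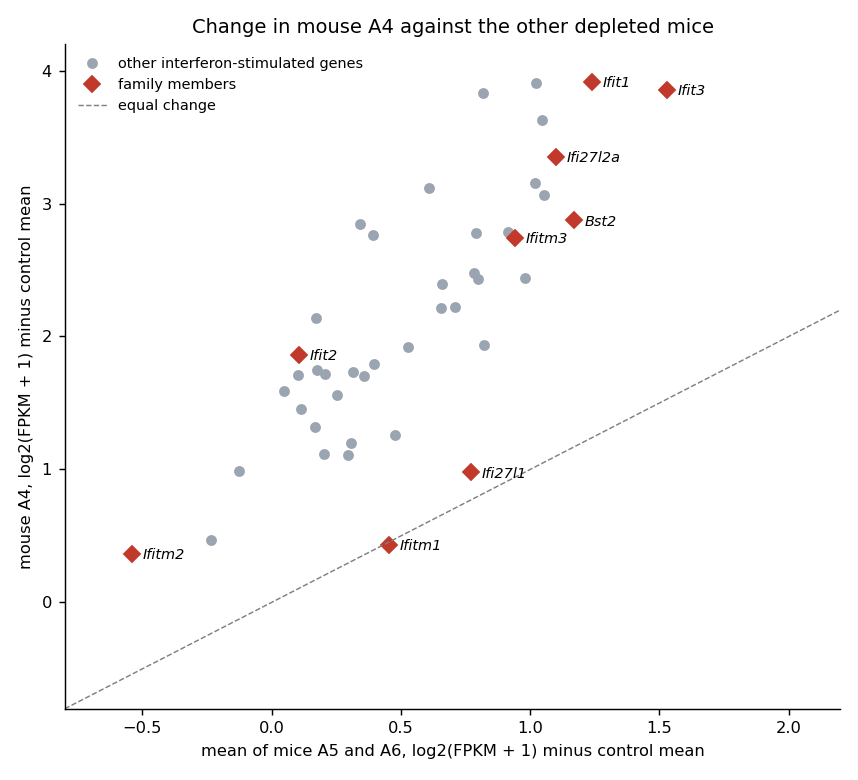
Log2(FPKM + 1) minus the control mean in A4 (vertical) against the mean of A5 and A6 (horizontal), for the 9 genes (red diamonds) and 35 other interferon-stimulated genes (grey circles); the dashed line marks equal change. Ifi27l1 and Ifitm1 lie near the line, and all 35 grey points lie above it, by 0.71 or more.

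Among the genes whose profile over the 6 mice was nearest to the mean profile of the 9 were C4b, Irgm1, Igtp and Gbp2, with root mean square differences of 0.056, 0.069, 0.15 and 0.15 on the log2 scale. C4b, a complement component, measured 6.12, 4.59 and 5.56 FPKM in the controls (A1 to A3) and 28.0, 9.59 and 9.47 FPKM after depletion (A4 to A6). Irgm1 and Igtp encode immunity-related GTPases and Gbp2 a guanylate-binding protein. Of the 9 genes themselves, Ifitm3 was nearest to the mean profile, at 0.25, and Ifitm2 was farthest, at 1.09.

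The parts of the signalling pathway differed among themselves. Ifnb1, the gene of interferon beta, had 0 FPKM in all mice but A4, where it was listed at 0.28 FPKM, and Ifna4 and Ifng were listed at 0 in all 6. The receptor genes Ifnar1 and Ifnar2 overlapped between the groups, with log2 fold changes of -0.0027 (SE 0.11) and 0.068 (SE 0.12). Stat2 and Irf9, of the ISRE-binding complex, had log2 fold changes of 0.75 (SE 0.25, limma adjusted p = 0.396) and 1.04 (SE 0.38, limma adjusted p = 0.418), or 0.42 and 0.51 without A4. Irf7, the regulator that amplifies interferon production, had a log2 fold change of 2.12 (SE 0.60, limma adjusted p = 0.378), or 1.3 without A4. In Stat2, Irf9 and Irf7 the groups did not overlap. Of the 13 genes of this list that were tested, 0 passed the adjusted threshold in limma, against 0.0278% of all genes tested. At an unadjusted p-value under 0.05, 0 were lower and 5 were higher, against 4.79% of all genes tested that were higher. The 5 include Ifngr1, which encodes a receptor chain for interferon gamma. The median log2 fold change of the 13 was 0.068, or -0.0092 without A4, with Irf3, a sensor-activated regulator, at the low end (-0.37, SE 0.17, limma adjusted p = 0.498, or -0.18 without A4).

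Markers of cell types that can hold these transcripts were measured beside them. Of 10 microglia markers, 7 were higher on average and 3 lower (median log2 fold change 0.029). Among them Fcrls and P2ry12 were lower (log2 fold changes of -0.90 and -0.35) at an unadjusted p-value under 0.05, and 0 passed adjustment in limma. Astrocyte markers summed to between 311.6 and 376.2 FPKM in control mice and to 542.0, 365.7 and 362.3 FPKM in A4 to A6, and 1 of 5 was higher on average (median -0.12). This was Gfap, which marks reactive astrocytes and measured 88.3, 64.5 and 84.2 FPKM in the controls (A1 to A3) and 300.3, 108.5 and 120.1 FPKM after depletion (A4 to A6). Gfap was highest in A4, as were 8 of the 9 genes among depleted mice (all but Ifitm1), and its log2 fold change was 1.00, or 0.54 without A4. Aldh1l1, a general astrocyte marker, had the lowest log2 fold change of that list, at -0.21.

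Endothelial markers summed to between 45.9 and 52.8 FPKM in control mice and between 55.4 and 57.1 FPKM in depleted mice, a gap that was similar in A4, A5 and A6. Of these 9 genes 7 were higher on average (median 0.10), from Cdh5 at -0.088 to Pecam1 at 0.34 on the log2 scale, and Cldn5 alone had an unadjusted p-value under 0.05. Mural cell markers summed to between 48.1 and 56.2 FPKM in control and between 37.1 and 44.3 FPKM in depleted mice, from Rgs5 at -0.40 to Acta2 at 0.11, or -0.18 and -0.11 without A4 (1 of 6 higher on average, median -0.35). Monocyte and border macrophage markers summed to between 12.1 and 17.7 FPKM in control and 15.4 and 25.8 FPKM in depleted mice, from F13a1 at -0.25 to Ly6c2 at 0.62 (0.36 without A4), with the highest sum in A4 and 4 of 6 tested genes higher on average (median 0.16). T and NK cell markers summed to no more than 3.83 FPKM, Gzmb was listed at 0 in every mouse and Cd4 alone passed the filter, at -0.20. Neutrophil markers were highest in A5, at 6.59 FPKM, where S100a8 was at 4.98 FPKM (log2 fold changes of -0.19 for S100a8 and -0.64 for S100a9, or 0.061 and -0.54 without A4, median of both -0.42). At an unadjusted p-value under 0.05 in limma, Vtn and Myl9 of the mural list were lower, both with a log2 fold change of -0.37. Their groups did not overlap. Lyz2 (0.54) and Ly6c2 of the monocyte list were higher at this threshold, and S100a9 was lower. Without A4, no gene of the monocyte or neutrophil list reached it. None of the lists in this paragraph had a gene past the adjusted threshold in limma. The part of these cell types in the values of the 9 genes was not tested.

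Markers of the remaining cell types and of tissue next to the cortex were measured in the same way. Choroid plexus markers summed to between 168.2 and 324.8 FPKM in control and between 46.5 and 71.4 FPKM in depleted mice, led by Ttr, the thyroid hormone carrier, with a log2 fold change of -1.91 (SE 0.26, limma adjusted p = 0.151), with Kl at -0.23 (0 of 6 higher on average, median -0.43). Meningeal fibroblast markers overlapped, from 28.7 to 34.2 FPKM and from 25.9 to 32.7 FPKM, with Dcn at 0.026 and Lum at -0.30 (1 of 5 higher on average, median -0.076). Oligodendrocyte markers summed to between 2644 and 2878 FPKM in control and between 2322 and 2390 FPKM in depleted mice, with Mobp at -0.20 and Mog at -0.30 (0 of 4 higher on average, median -0.22). Among cortical neuron markers Gad1 was at 0.056 and Neurod6 at -0.32 (3 of 9 higher on average, median -0.053). The part of these tissues in the values of the 9 genes was not tested either.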

How the data were processed

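Cortical RNA of 3 control and 3 depleted mice was analysed, with 1 library per mouse and groups taken from the sample titles. The authors sequenced poly(A)-selected libraries (paired ends of 75 bp), used TopHat for alignment and RSEM with known transcripts for quantification, and deposited FPKM values scaled with TMM factors; the submitters' processing notes name build mm9 and DESeq, and versions are not given in the sources used here. No raw counts were used.

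Values were taken to log2(FPKM + 1), a scale that understates the change of low genes. The groups were compared by limma 3.58.1 (R 4.3.3) over the 14385 of 23366 genes whose mean reached 0.5 FPKM (lmFit, eBayes with trend), with Benjamini-Hochberg adjustment over all of them, a threshold of 0.1 and no covariate. Tested on simulated data of 14385 genes, the fit recovered 180 of 200 genes shifted by 1 log2 unit, each with its true sign, and made 25 false calls. The shifted genes were drawn only from genes with a mean log2(FPKM + 1) above 1, so the share recovered does not describe lower genes. The simulated noise was drawn separately for each gene and mouse, with no mouse far from the rest across many genes. The share recovered therefore does not apply to genes in which A4 stood apart. Ratios between genes were tested by exact two-sided permutation, whose lowest p-value with 3 mice per group is 0.1. Fragments per library were estimated from low values of 1813 genes with a single GENCODE M21 transcript of 400 to 1500 bases, and those behind a gene from its FPKM and transcript length, so they are approximate. Promoters and current symbols came from RefSeq (GRCm38.p6), shared windows from GENCODE M21, both matched by symbol and not of the build of the files.

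The genes and lists were chosen with earlier results of these data known. The named genes were the 9 themselves, their relatives, 7 signalling genes and the 5 nearest in profile. The genes with the highest and lowest log2 fold change of each list were also named. Ifngr1, P2ry12, Cldn5, Vtn, Myl9 and Lyz2, and the ratios between genes, were added once values were known. Some genes that this rule names are not reported here. The alternatives tried used a pseudocount of 0.1, other filters, TPM, median-of-ratios and quantile scaling, other variance models, array weights, a threshold of 0.05 and leaving out each mouse. Python 3.11.15, numpy 2.4.6, pandas 2.3.3 and matplotlib 3.10.9 were used for the rest.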

Additional observations from a re-analysis of the deposited data

How the results depend on the processing

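The 6 genes Ifit1, Ifit3, Ifitm3, Ifi27l1, Ifi27l2a and Bst2 and the genes Ifit2 and Ifitm1 kept their direction in the 11 alternatives that can move a fold change (4 others, on filters and variance models, leave it as it is); Ifitm2 changed direction in 1, at 0.034 on the log2 scale without A5, against -0.54 without A4. The count of all genes past the threshold in limma, 4, was 2 with eBayes without trend, 20 with array weights and between 2 (without A1) and 29 (without A5) when a mouse was left out, with 8 without A6. Of the 9 genes, 1 passed with array weights, and 1 without A5, against 0 when any other mouse was left out. Over the fits that left out a mouse, from 6 to 8 were higher at an unadjusted p-value under 0.05 (2.48% to 6.91% of all genes tested), from 6 to 8 had groups that did not overlap (8 without A1 or A6, where this held for 11.0% and 14.8% of all genes tested), and the median log2 fold change ran from 0.94 without A4 to 1.89 without A5. Pseudocount, filter, variance model and weights do not enter the count of groups that did not overlap. The cause of these shifts was not tested.

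With 3 mice a group and 1 depleted mouse far from the others, the fit has wide standard errors, and few fragments lie behind short genes such as Ifi27l2a in most mice and Ifitm2 in A5, the shallowest library. No litter, batch or date is given in the labels, and none was fitted.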
